A study of Homo sapiens with 14 samples.

Results

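The genes described here are the early response genes NR4A1, NR4A2 and NR4A3, which encode orphan nuclear receptors, and EGR1, EGR2 and EGR3, which encode zinc finger transcription factors. They were listed by symbol, and the reads of all their transcripts were summed, which gave 6 of the 60876 annotated genes. They were chosen because earlier results of these data had NR4A1 and EGR1 above the control in the CX-5461 libraries labelled 10 min, so the members' values that involve those libraries describe the choice, no p is given for them, and nothing is read from how many passed a call there. The same 6 genes were then measured in the 5 other treated groups, which the choice did not use. The control libraries were part of the choice and enter each comparison with the control, so only comparisons among those 5 groups are free of it.

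The RNA came from MDA-MB-231, an established human triple negative breast cancer cell line, in 14 libraries of poly(A) RNA that form 7 groups of 2. One group was the control. The other 6 were treated with 5 µM RBI2, a small-molecule inhibitor of ribosome biogenesis, or with 5 µM CX-5461, an inhibitor of RNA polymerase I, and were labelled 10, 30 or 120 min for each compound. The control cells are called untreated in the study's methods but vehicle treated in its results, and the same 2 control libraries served every comparison with the control. The deposited file names of the treated libraries carry the numbers 2, 10 and 30 where the labels give 10, 30 and 120 min. Groups follow the labels, so an order in time rests on them. The cells were of 1 line. The study's methods name serum for the viability assays but do not state the medium of these libraries. No source says that replicates were separate cultures, so p-values measure only the spread between these libraries.

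Libraries held 14112299 to 24849354 estimated reads. All 5 markers of MDA-MB-231 (VIM, CD44, AXL, CAV1 and EGFR) were present, while luminal epithelial, fibroblast and leukocyte markers summed to at most 24.5, 2.26 and 0.452 TPM (transcript levels per length and library size) in any library. Control replicate 2 had 20.4% of its reads in mitochondrial genes against 8.05% to 11.2% in the other 13 libraries. Between the 2 control libraries 1412 genes differed by more than 2-fold, against 461 to 629 between treated replicates. The part of these differences in the results was not tested. In bulk RNA, fewer cells with a transcript and less of it per cell cannot be told apart.

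Immediate early genes are transcribed within minutes of a stimulus such as serum, a growth factor or stress, without new protein synthesis, and their mRNAs are short-lived. Serum response factor (SRF) with its ERK-activated partners acts through CArG boxes, and CREB acts through cAMP response elements (CRE), in the promoters of many of them. NR4A receptors need no known endogenous ligand and are controlled mostly by how much of them is made, and they bind DNA as monomers at the NBRE motif or, for NR4A1 and NR4A2, as partners of retinoid X receptors. EGR proteins bind GC-rich sites and are held back by the corepressors NAB1 and NAB2.

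The promoter sequences show which of these elements lie near the genes' starts. RefSeq promoters of GRCh38.p14 were matched by symbol for 4 of the 6 genes, EGR1, EGR2, NR4A1 and NR4A3, with 7 promoters in all. Below are the 250 bases before the start, 5′ to 3′ on the gene's strand, for the 3 that held a motif. Capitals mark CRE cores (TGACG, or CGTCA on the other strand), CArG boxes (CC, then 6 bases of A or T, then GG) and the EGR site GCGNGGGCG.
EGR1, chr5:138465229-138465478, plus strand: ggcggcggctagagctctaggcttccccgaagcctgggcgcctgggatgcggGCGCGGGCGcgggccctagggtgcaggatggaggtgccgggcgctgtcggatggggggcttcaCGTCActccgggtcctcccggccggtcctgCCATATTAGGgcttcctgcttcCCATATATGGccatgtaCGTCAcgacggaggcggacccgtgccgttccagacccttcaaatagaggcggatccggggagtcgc
EGR2, chr10:62816367-62816616, minus strand: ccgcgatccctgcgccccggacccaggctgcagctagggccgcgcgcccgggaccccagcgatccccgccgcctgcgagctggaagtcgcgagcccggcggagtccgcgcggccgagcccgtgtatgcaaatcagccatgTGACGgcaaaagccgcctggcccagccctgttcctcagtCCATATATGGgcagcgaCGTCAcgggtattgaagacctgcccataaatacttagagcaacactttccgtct
NR4A3, chr9:99821635-99821884, plus strand: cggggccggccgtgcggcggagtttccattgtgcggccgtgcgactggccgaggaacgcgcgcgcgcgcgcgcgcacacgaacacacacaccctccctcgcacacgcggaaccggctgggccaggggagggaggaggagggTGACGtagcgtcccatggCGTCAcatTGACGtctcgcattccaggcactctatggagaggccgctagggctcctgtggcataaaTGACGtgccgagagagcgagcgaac
EGR1 had 2 CArG boxes, at -105 and -83 from the start by their first base, 2 CRE cores at -135 and -66, and an EGR site at -198. EGR2 had 1 CArG box at -71 with the letters CCATATATGG, the same letters as the second box of EGR1, and CRE cores at -110 and -54. NR4A3 had 4 CRE cores, at -109, -91, -83 and -25, and no CArG box.

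Both strands were searched, and no match overlapped one of another motif. Of 35116 promoter windows of the same length, 1.16% held a CArG box, 21.2% a CRE core and 8.41% an EGR site. The full CRE (TGACGTCA, in 1.65% of windows), the NBRE (AAAGGTCA, 1.05%) and the TATA motif TATAAA (10.7%) had no match in the 7 windows, nor did any motif in the 2 windows of NR4A1 and the other 2 of EGR2. The windows of NR4A1 lie before starts that held 3.01% and 33.1% of its reads, those 2 of EGR2 before starts that held 0%, and that of NR4A3 before a start that held 40.6%. NR4A2, EGR3 and the starts of NR4A1 and NR4A3 with most of their reads had no entry.

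NR4A1 (ENSG00000123358, chr12:52022832-52059507), a receptor linked to cell death and metabolism, had 1.49 and 1.44 CPM (read counts scaled to library size by TMM) in the 2 control libraries. With RBI2 it had 2.91 and 3.03 CPM (10 min), 2.43 and 2.97 CPM (30 min), and 3.13 and 2.10 CPM (120 min). With CX-5461 it had 7.82 and 8.56 CPM (10 min), 2.60 and 2.86 CPM (30 min), and 2.32 and 3.01 CPM (120 min). Both control libraries lay below all 12 treated ones, an order that 2.64% of the tested genes shared and that was noticed after the values were seen. It includes the contrast that the choice used, and nothing is read from it. Among the 5 treated groups other than CX-5461 10 min every pair overlapped except RBI2 10 min and CX-5461 30 min. In TPM the order against the control did not hold, since control replicate 1 had 1.08 TPM and control replicate 2 had 0.328, and RBI2 120 min replicate 2 had 0.795.

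NR4A2 (ENSG00000153234, chr2:156324437-156342348), a receptor known for its part in dopaminergic neurons, had 0.932 and 0.959 CPM in the control. With RBI2 it had 1.34 and 1.30 CPM (10 min), 1.78 and 1.06 CPM (30 min), and 1.06 and 0.870 CPM (120 min). With CX-5461 it had 13.5 and 11.7 CPM (10 min), 1.27 and 0.382 CPM (30 min), and 1.51 and 2.55 CPM (120 min). Apart from CX-5461 10 min, the highest library was one of CX-5461 120 min and the lowest one of CX-5461 30 min. The control overlapped RBI2 120 min and CX-5461 30 min and lay below the other groups. The control did so for 18.2% of the tested genes in RBI2 10 min, 26.3% in RBI2 30 min and 19.4% in CX-5461 120 min. At these shares nothing is read from the order.

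NR4A3 (ENSG00000119508, chr9:99821855-99866891), the third receptor of the family, rested on 188 reads over the 14 libraries and reached the level of the filter on low counts in 4 of them, those of both compounds at 10 min. It had 0.124 and 0.479 CPM in the control, 0.911 and 0.680 with RBI2 at 10 min, and 3.02 and 2.67 with CX-5461 at 10 min. In the other 4 groups it had 0.236 to 0.533 CPM. RBI2 10 min was the second group, above all libraries outside CX-5461 10 min. The share of all genes with this order was not counted, and nothing is read from it. The lncRNA STX17-DT on the other strand overlaps the gene and held 764 reads in all; the library kit keeps the strand, but no strand setting is stated.

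EGR1 (ENSG00000120738, chr5:138465479-138469303), the most abundant of the 6, had 9.01 and 12.9 CPM in the control. With RBI2 it had 14.2 and 16.0 CPM (10 min), 11.98 and 10.69 CPM (30 min), and 14.57 and 14.64 CPM (120 min). With CX-5461 it had 37.2 and 37.0 CPM (10 min), 7.79 and 9.80 CPM (30 min), and 15.0 and 13.8 CPM (120 min). The control overlapped RBI2 30 min and CX-5461 30 min, and lay below the other 4 groups. The control did so for 18.2% of the tested genes in RBI2 10 min, 27.2% in RBI2 120 min and 19.4% in CX-5461 120 min. At these shares nothing is read from the order. In TPM the control libraries, at 3.68 and 3.42, also lay below both RBI2 30 min libraries, at 5.34 and 4.93.

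EGR2 (ENSG00000122877, chr10:62811996-62819167), known for its role in myelination, and EGR3 (ENSG00000179388, chr8:22687659-22693480), known in muscle spindles and lymphocytes, were too low to be tested. EGR2 had 48 reads over all libraries: 2 and 1 in the control, 11 and 14 with CX-5461 at 10 min, and 0 to 4 in each of the other 10. Its ratio of CX-5461 10 min to control, from 25 against 3 reads pooled over the 2 libraries of each group, was 6.53. It rests on few reads and on libraries used in the choice, so nothing is read from it. EGR3 had 34 reads: 2 and 2 in the control, 6 and 7 with CX-5461 at 10 min, and 0 to 4 elsewhere. Its ratio, 2.55 from 13 against 4 pooled reads, has the same limits. In TPM control replicate 2 of EGR3, at 0.140, was above the 0.0998 and 0.118 of CX-5461 10 min. In CPM both libraries of CX-5461 10 min were above the other 12 for all 6 genes, while 4.12% of the tested genes had that order; this restates the choice of the genes, and nothing is read from it.

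**Figure D1:**
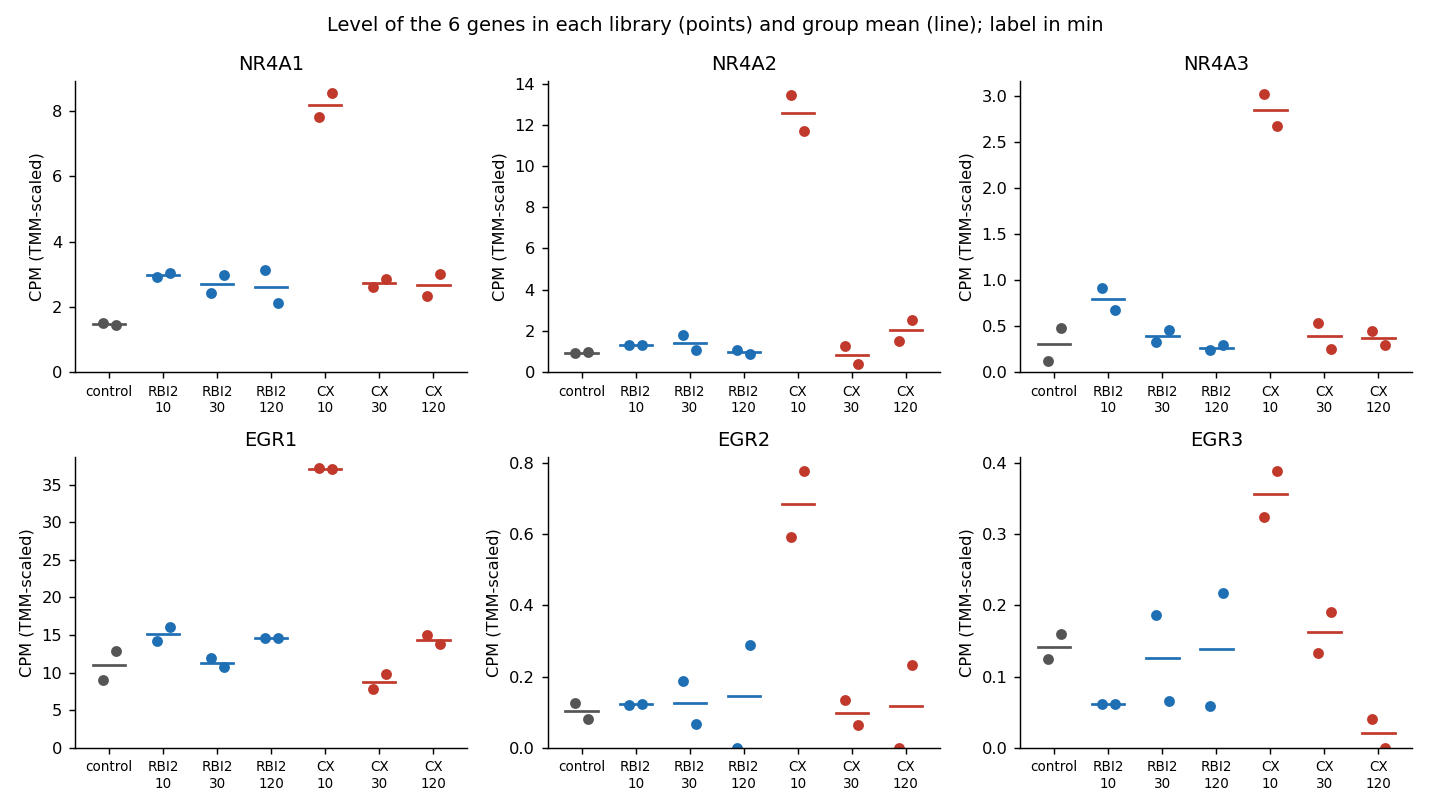
CPM scaled by TMM (y axis, from 0) of each of the 6 genes in each library (points) and the group mean (line), by group with the label in min (grey control, blue RBI2, red CX-5461). CX-5461 10 min stands highest in every panel, and the control of NR4A1, at 1.44 and 1.49 CPM, lies below the 12 treated libraries.

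Levels of different genes were compared per length, in TPM. In the control the order was EGR1 at 3.55 ± 0.185 TPM (SD, n = 2), NR4A1 at 0.706 ± 0.534, NR4A2 at 0.271 ± 0.142, EGR2 at 0.0946 ± 0.0635, EGR3 at 0.0886 ± 0.0726 and NR4A3 at 0.0735 ± 0.0423. Of neighbours in this order only EGR1 and NR4A1 differed by more than the sum of their SDs, and NR4A1 replicates alone spanned 0.328 to 1.08 TPM. With CX-5461 at 10 min the order was EGR1 at 15.3 ± 0.416, NR4A2 at 5.22 ± 0.656, NR4A1 at 4.28 ± 1.21, NR4A3 at 0.925 ± 0.178, EGR2 at 0.472 ± 0.224 and EGR3 at 0.109 ± 0.0129 TPM. NR4A2 and NR4A1 changed places in this order, but their replicates overlapped in these libraries, and EGR1 was again the highest. NR4A3, the lowest in the control, stood above EGR2 and EGR3, and its replicates, at 1.05 and 0.799 TPM, did not overlap those of EGR2, at 0.631 and 0.314.

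The split of a gene's reads among its transcripts was not used in the choice, but the CPM at each start are parts of the gene totals that were. Of the reads of NR4A1, 52.3% were assigned to 7 transcripts that start at 52051402 to 52051463 and 33.1% to NR4A1-206, which starts upstream at 52037715. The downstream start had 5.56 and 6.13 CPM with CX-5461 at 10 min, 1.24 and 0.442 in the control, and 0 to 2.19 in the other 10 libraries. NR4A1-206 had 1.66 and 1.27 CPM with CX-5461 at 10 min, 0 and 0.996 in the control, and 0.375 to 1.94 in the others, so these libraries overlapped the rest at that start. The split was unstable between replicates (the downstream start held 83.3% and 30.7% of the control reads) but was 71.1% and 71.6% in the CX-5461 10 min libraries, where the gene had the most reads.

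**Figure D2:**
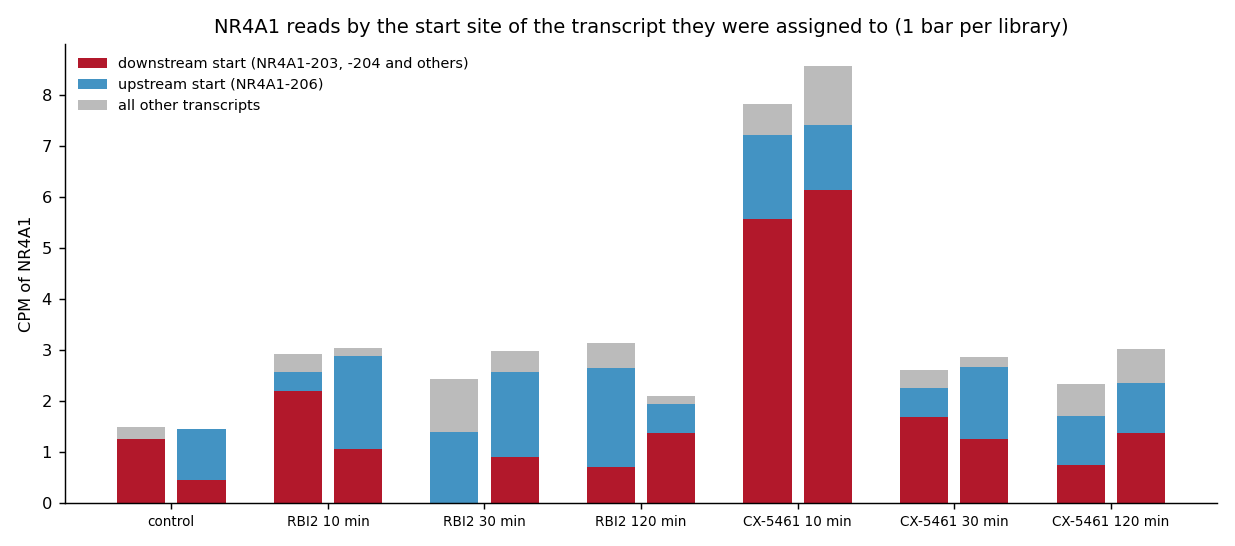
NR4A1 in CPM (y axis, from 0), 1 bar per library in pairs by group, split by the start site of the transcript that reads were assigned to (red downstream, blue NR4A1-206, grey all others). The red part reaches 5.56 and 6.13 CPM with CX-5461 at 10 min and at most 2.19 elsewhere, while the blue part overlaps between groups.

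For NR4A2, 87.0% of the reads went to 4 transcripts that start at 156332713 to 156332721, with 12.5 and 11.7 CPM in CX-5461 10 min, 0.588 and 0.816 in the control and 0.269 to 1.53 in the rest. The upstream NR4A2-204 had 0.689 and 0 CPM in CX-5461 10 min and 0.345 and 0.143 in the control, which overlap. For NR4A3 the assignment could not be used: NR4A3-201 held 92.3% of the reads of one CX-5461 10 min library and 0% of the other. EGR1 has a single transcript.

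In the comparison of RBI2 with the control, which asks how the cells' transcripts differ after the newer compound, edgeR's quasi-likelihood test passed none of the 4 tested members at any label. A call required an adjusted p under 0.05 (Benjamini-Hochberg, over all 15426 genes tested) and a log2 fold change of 1 or more in size. The calls were 0 of 4 at 10 min (background 0.0778% of all tested genes), 0 of 4 at 30 min (0.0389%) and 0 of 4 at 120 min (1.82%). An unadjusted p gave 2, 0 and 0 members with the same fold limit (1.94%, 2.21% and 3.65% of all tested genes), and DESeq2 called 0 of the 3, 1 and 3 members to which it gave an adjusted p.

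NR4A1 had a log2 fold change of 1.01 (SE 0.24, adjusted p = 0.156) with RBI2 at 10 min and 0.87 (SE 0.24, adjusted p = 0.111) at 30 min. At 120 min it was 0.84 (SE 0.24, adjusted p = 0.039), which passed the adjusted p and not the fold limit, and 18% of the tested genes passed that p alone there. That adjusted p ran from 0.0401 to 0.354 when single libraries were left out, with the highest without RBI2 120 min replicate 1 (0.54 log2 units), and it was 0.0834 in DESeq2, 0.0636 without the filter on low counts, 0.351 with the length offset and 0.26 with the GC offset, where the log2 fold change was 0.45. In each of the 3 comparisons the control libraries lay below those of RBI2, as for 18.2%, 26.3% and 27.2% of the tested genes. The value at 10 min passed both limits without control replicate 1 (1.04, adjusted p = 0.0333), where 4.45% of all genes were called, and without the filter on low counts (1.02, adjusted p = 0.0406), where 1.04% were, and it was 0.67 (adjusted p = 0.531) with the length offset.

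NR4A3 had a log2 fold change of 1.45 at RBI2 10 min with a 95% interval, not adjusted for the number of genes, of 0.21 to 2.70 (adjusted p = 0.325), and it ran from 0.72 to 2.59 when single libraries were left out. It was 0.43 at 30 min and -0.13 at 120 min. NR4A3 reached the level of the filter on low counts only in the 10 min libraries of both compounds. An interval above 0 at RBI2 10 min is therefore not read as a change. NR4A2 had 0.48, 0.61 and 0.04 at the labels 10, 30 and 120 min, with intervals that all held 0. Its value at 30 min ran from 0.17 to 0.90 when single libraries were left out. EGR1 had 0.47 (0.11 to 0.84, adjusted p = 0.294) at 10 min, 0.06 at 30 min and 0.43 (0.06 to 0.79, adjusted p = 0.0901) at 120 min, which ran at 10 and 120 min from 0.23 to 0.73 and from 0.17 to 0.69 when single libraries were left out. The intervals leave changes of up to 0.84 log2 units open for EGR1 and of up to 2.70 for NR4A3.

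For CX-5461 at the label 10 min, the fitted log2 fold changes against the control were 2.48 (SE 0.23) for NR4A1, 3.72 (SE 0.41) for NR4A2, 3.28 (SE 0.51) for NR4A3 and 1.77 (SE 0.16) for EGR1. All 4 passed the call (background 1.64%), from which nothing is read since the genes were chosen on this contrast, and a model of only these 4 libraries called 0 of 4 and 0.0194% of all genes. NR4A2 had the largest fitted change of the 4 and EGR1 the smallest, and the value of NR4A3 ran from 2.55 to 4.44 when single libraries were left out.

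At the later labels of CX-5461 none of the 4 passed edgeR's test, 0 of 4 at 30 min (background 0%) and 0 of 4 at 120 min (0.0454%). An unadjusted p gave 0 and 1 (2.15% and 1.87% of all tested genes), and DESeq2 called 0 of 4 at 30 min and gave no adjusted p at 120 min. NR4A1 had log2 fold changes of 0.89 (0.36 to 1.43, adjusted p = 0.213) and 0.85 (0.33 to 1.37, adjusted p = 0.293). NR4A2 had -0.21 (-1.32 to 0.90) at 30 min and 1.07 (0.11 to 2.04, adjusted p = 0.370) at 120 min, and EGR1 had -0.30 (-0.68 to 0.07) and 0.41 (0.05 to 0.76, adjusted p = 0.361). With single libraries left out the values at 120 min ran from 0.66 to 1.43 for NR4A2 and from 0.16 to 0.66 for EGR1. NR4A3 had 0.44 and 0.39, with intervals on both sides of 0.

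**Figure D3:**
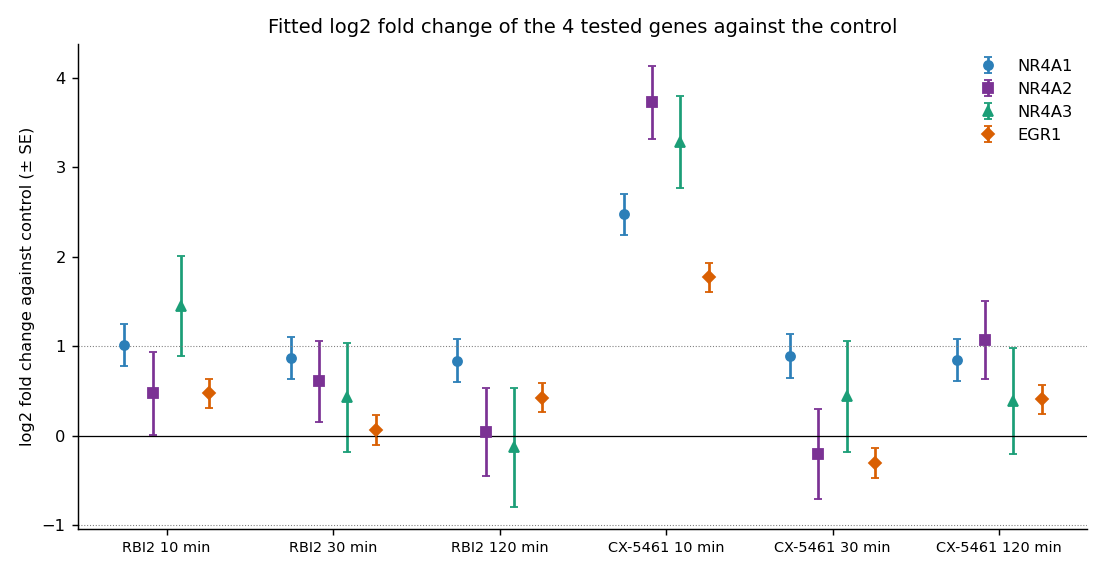
Fitted log2 fold change against the control (y axis, ± SE) of NR4A1, NR4A2, NR4A3 and EGR1 in each treated group (x axis), with dotted lines at the fold limit of 1 and -1. The 4 genes lie between 1.77 and 3.72 in CX-5461 10 min and between -0.30 and 1.45 in the other 5 groups.

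Between labels of CX-5461, the libraries at 10 min exceeded those at 30 min by 1.58 log2 units for NR4A1, 3.93 for NR4A2, 2.84 for NR4A3 and 2.08 for EGR1, and those at 120 min by 1.62, 2.65, 2.89 and 1.37, again from libraries used in the choice. All 4 passed the call in both (background 0.888% in each), and nothing is read from that count. From 30 to 120 min, which the choice did not use, 0 of 4 passed edgeR's call (background 0.013%), with 1 at an unadjusted p (1.37% of all tested genes). That gene was NR4A2, for which 30 minus 120 min was -1.28 log2 units (adjusted p = 0.196). For EGR1 it was -0.71 (-1.07 to -0.35, adjusted p = 0.196), and its libraries at 30 and 120 min did not overlap, as for 35.9% of the tested genes in that direction.

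Among the labels of RBI2, 0 of 4 passed edgeR's call in the 3 comparisons (backgrounds 0.0583% for 10 against 30 min, 0.694% for 10 against 120 min and 0.013% for 30 against 120 min), with 0, 1 and 0 at an unadjusted p (1.02%, 2.62% and 1.6% of all tested genes). NR4A3 was higher at 10 than at 120 min by 1.58 log2 units (0.34 to 2.82, adjusted p = 0.116). It reached the level of the filter on low counts only in the 10 min libraries of both compounds. The gene was thus tested through the libraries where it is high, and this difference is not read as a change between labels. NR4A1 differed by 0.15, 0.17 and 0.03 log2 units, and NR4A2 by -0.13, 0.44 and 0.57. EGR1 differed by 0.41 (0.06 to 0.76, adjusted p = 0.473), 0.05 and -0.36 (-0.72 to -0.01, adjusted p = 0.478). Its libraries did not overlap for 10 against 30 min and for 30 against 120 min, as for 30.5% and 26.5% of the tested genes in those directions.

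RBI2 and CX-5461, both at 5 µM, were compared at each label. At 10 min RBI2 minus CX-5461 was -1.46 log2 units for NR4A1, -3.25 for NR4A2, -1.83 for NR4A3 and -1.30 for EGR1, of which all but NR4A3 passed the call (3 of 4, background 1.04%), and nothing is read from this, since these libraries were used in the choice. NR4A3 passed too with DESeq2's size factors, without the filter on low counts, with the GC offset, in a model of only the 4 libraries and without either control library, and NR4A1 did not pass with the length offset. At 30 min 0 of 4 passed edgeR's call (background 0.013%), and at 120 min 0 of 4 (1.67%), with 0 and 1 at an unadjusted p (1.45% and 3.67% of all tested genes). For NR4A1 the compounds differed by -0.02 (-0.51 to 0.46) at 30 min and by -0.01 (-0.49 to 0.48) at 120 min. For EGR1 they differed by 0.37 (0.0011 to 0.73, adjusted p = 0.639) at 30 min and by 0.02 (-0.33 to 0.37) at 120 min. The value of EGR1 at 30 min ran from 0.18 to 0.54 when single libraries were left out.

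For NR4A2, RBI2 minus CX-5461 was 0.82 log2 units (-0.20 to 1.83) at 30 min and -1.03 (-1.98 to -0.08, adjusted p = 0.128) at 120 min. With single libraries left out these ran from 0.19 to 1.87 and from -1.39 to -0.60. The difference at 30 min exceeded that at 120 min by 1.85 log2 units (adjusted p = 0.224 in edgeR's interaction test). NR4A3 differed by -0.01 (-1.26 to 1.23) and -0.52 (-1.84 to 0.80), so the intervals of both leave room for changes above 2-fold.

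Other parts of the network were taken from lists of related genes. EGR4, the fourth EGR gene, was not tested, with 1 and 0 reads in the control, 5 and 5 with CX-5461 at 10 min and 1 to 5 in the other 10 libraries. NAB1, a corepressor of EGR proteins, had 24.1 and 32.1 CPM in the control and 19.1 and 19.9 with RBI2 at 120 min, a log2 fold change of -0.52 (adjusted p = 0.0414) that was under the fold limit. In that comparison 18% of the tested genes passed the adjusted p alone. NAB2, the second corepressor and itself a known EGR1 target, had 17.5 and 8.63 CPM in the control, where replicate 2 was the lowest of all libraries, and 23.7 and 22.5 CPM in CX-5461 10 min. It was not called in any comparison with the control, but was called in all of them other than CX-5461 120 min without control replicate 1, as were 4.45% to 8.33% of all tested genes. The retinoid X receptors RXRA and RXRB were tested and RXRG was not, and 0 of 2 passed edgeR's call in any comparison with the control, nor at an unadjusted p or in DESeq2, beside 0% to 1.82% of all tested genes called and 1.87% to 4.19% at an unadjusted p.

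Upstream regulators were measured in the same way. In the 6 comparisons with the control edgeR called 0 of the 6 genes of SRF and its cofactors, 0 of 8 of CREB and its coactivators and 0 of 14 of the RAS-ERK pathway (0% to 1.82% of all tested genes), and the counts were also 0 at an unadjusted p (1.87% to 4.19%) and, among genes with an adjusted p, in DESeq2. At these shares over all genes, counts of 0 in lists of this size are not a result about the lists. Leaving out control replicate 1 brought in MRTFB and EP300, each in CX-5461 30 min, where 7.03% of all tested genes were then called. In CX-5461 10 min their median log2 fold changes were -0.19, -0.15 and 0.16, beside -0.04 over all tested genes. Of 7 known targets of EGR1, 1 was called, PDGFB, which encodes a subunit of platelet-derived growth factor. It had 3 and 1 reads in the control, 48 and 31 in CX-5461 10 min and 1 to 11 in the others, and a fitted log2 fold change of 3.89 (SE 0.59), a call that was lost without CX-5461 10 min replicate 1. It reached the level of the filter on low counts only in the 2 libraries of CX-5461 10 min, so it had to differ there, and nothing is read from its call (background 0.752% higher). The 6 other targets were not called, and the list's median was 0.04.

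Of 31 other immediate early genes, 7 were called higher and 7 lower in CX-5461 10 min (backgrounds 0.752% and 0.888%), and the list's median log2 fold change was 0.05. The 7 higher ones were ARC, ATF3, BTG2, CSRNP1, FOS, FOSB and JUNB. The 7 lower ones were CCN1, DUSP6, FOSL1, IER3, JUN, KLF6 and MYC. ARC, a synaptic regulator, had 0.559 CPM in each control library and 3.99 and 2.78 in CX-5461 10 min, a log2 fold change of 2.58 (SE 0.40). FOSB, which encodes an AP-1 subunit, had 1.62 and 1.92 CPM against 10.8 and 9.67, a log2 fold change of 2.54 (SE 0.23).

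In the other direction, CCN1, which encodes a matricellular protein, fell from 685 and 673 CPM to 94.1 and 90.6, a log2 fold change of -2.88 (SE 0.06). MYC, a growth regulator, fell from 178 and 193 CPM to 34.9 and 32.3 (-2.46, SE 0.08). The 4 tested members thus lay on the side of FOSB, FOS and ARC, and among the 35 genes plotted together NR4A2 and NR4A3 had the highest fitted values. NR4A3 reached the level of the filter on low counts only in the 10 min libraries of both compounds. This list shares the libraries used in the choice and was read with those results known. Nothing is read from the place of the members in it.

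**Figure D4:**
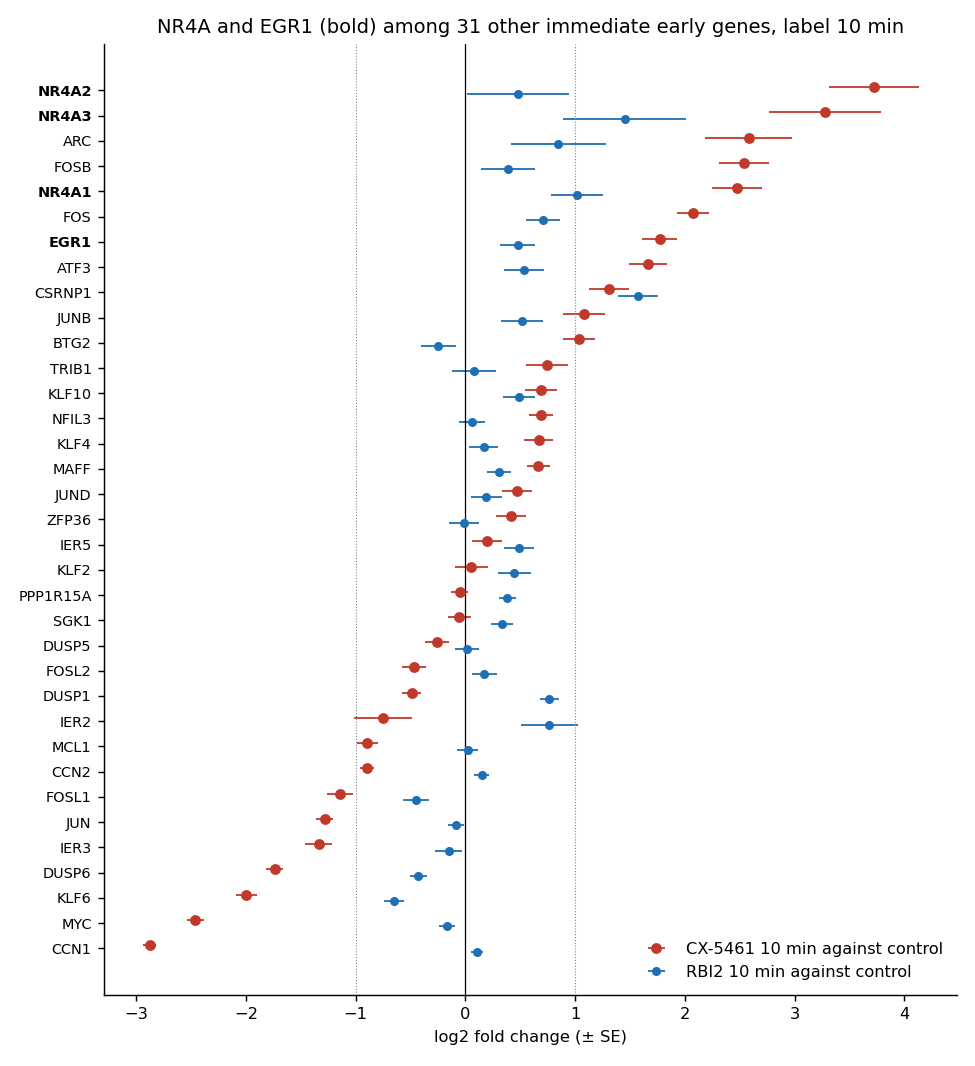
Fitted log2 fold change against the control (x axis, ± SE) of NR4A1, NR4A2, NR4A3 and EGR1 (bold) and 31 other immediate early genes, ordered by CX-5461 10 min (red), with RBI2 10 min in blue and dotted lines at 1 and -1. In red the genes run from -2.88 (CCN1) to 3.72 (NR4A2), and in blue CSRNP1, at 1.58, is the highest.

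With RBI2 at 10 min only CSRNP1, a nuclear protein gene induced by AXIN1, passed edgeR's call among the 31 (1.58, SE 0.18, adjusted p = 0.00631, background 0.0583% higher). It had 16.5 and 10.1 CPM in the control and 39.8 and 40.2 with RBI2, above the 33.1 and 33.5 of CX-5461 10 min. With CX-5461 at 120 min FOS passed (1.10, SE 0.15, adjusted p = 0.0259, background 0.0259% higher), from 2.30 and 2.24 CPM to 4.48 and 5.27. Both calls were lost with the length offset and in a model of only the 4 libraries, and that of FOS with the replicate block. The call of CSRNP1 was lost when either RBI2 10 min library was left out, and that of FOS with 12 of the 14 libraries left out in turn. None of the 31 passed edgeR's call at the other 3 comparisons, RBI2 30 min, RBI2 120 min and CX-5461 30 min (0.0389%, 1.82% and 0% of all tested genes), nor at an unadjusted p (2.21%, 3.65% and 2.15%), where DESeq2 also called 0 of those it gave an adjusted p. Without control replicate 1, up to 2 of the 31 passed there (CSRNP1 and IER2 with RBI2, IER2 with CX-5461), beside 6.59%, 8.21% and 7.03% of all tested genes.

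Patterns most like those of the members were ranked by Pearson's r of log2 CPM over the 14 libraries, among 13266 genes with a mean of at least 1 CPM, as a description. For NR4A1 the 5 nearest were FGFR3 (r = 0.957), ZNF48 (0.942), TRAFD1 (0.940), USP43 (0.932) and SLC6A8 (0.927). FGFR3, a receptor tyrosine kinase, had a mean of 4.91 CPM in the control, 13.7 in CX-5461 10 min and 6.16 to 7.59 CPM in the 10 single libraries of the other groups. For EGR1 the near genes included FOSB (0.925), BAZ1A-AS1 (0.922), SNAI1 (0.917) and FOS (0.913). SNAI1, which encodes the repressor Snail, had 7.72 CPM in the control, 32.2 in CX-5461 10 min and 7.59 to 14.7 in the other 10 libraries.

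These rankings rested in part on the 2 libraries of CX-5461 10 min, more for some genes than for others. Without them the r with NR4A1 was 0.825 for FGFR3 (rank 18), 0.821 for ZNF48 (rank 22) and 0.633 for SLC6A8 (rank 778). The r with EGR1 was then 0.741 for BAZ1A-AS1 (rank 58) and 0.573 for FOSB (rank 656). Among the 4 tested members the 6 pairwise r were 0.825 to 0.873 over 14 libraries and 0.192 to 0.342 over the 12 others. All libraries share one cell line and the same scaling.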

How the data were processed

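RNA from MDA-MB-231 cells was measured in 14 libraries. The authors removed reads of the rDNA repeat and quantified GRCh38 transcripts with Salmon (1.3.0 in the submitters' processing notes), and the deposited values are estimated counts and TPM per transcript. Transcripts were matched without version to GENCODE 44 (225662 of 228754 matched, and 1.03% to 1.13% of reads did not) and summed to genes, and the sums were rounded. CPM were scaled with TMM.

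edgeR 4.0.16 (R 4.3.3) fitted all 14 libraries in one model of 7 groups after filterByExpr (minimum count 10), which left 15426 genes and 4 of the 6 members. The quasi-likelihood F test was adjusted by the Benjamini-Hochberg method over all of them, and the fitting was tested on simulated data. The common biological coefficient of variation was 12.3%, and 2 replicates and the low counts of the members limit the precision. Intervals of log2 fold changes are t intervals at 95%. Promoter motifs were matched exactly.

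The members and lists were chosen with earlier results of these data known. Named genes were the members, EGR4, NAB1, NAB2, at most 4 called genes per list and comparison by fold change, and the 5 genes nearest to NR4A1 and to EGR1, of which 1 is not reported here; other called immediate early genes, RXRA to RXRG and SRF-related lists are given by name or count. DESeq2 1.42.0, its size factors, no filter, offsets for length and GC content, a replicate block, smaller models and left-out libraries were alternatives.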

Additional observations from a re-analysis of the deposited data

How the results depend on the processing

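The 36 log2 fold changes of the members against the control and between compounds were recomputed under 8 fits of all or part of the libraries and without each library. The 8 fits gave 275 values, so not every one of the 36 was counted under every fit. The left-out libraries gave 504. Values between labels of the same compound are not among these 36. The sign changed in 11 of them, none of which exceeded 0.44 in size. For NR4A1 in RBI2 against CX-5461 at 120 min it became 0.0225 with DESeq2, 0.0207 with its size factors and 0.0125 without a filter. With the length offset NR4A2 at CX-5461 30 min became 0.19, and RBI2 against CX-5461 at 30 min became 0.12 for NR4A1 and 0.0802 for NR4A3. With the GC offset EGR1 became -0.12 at RBI2 30 min and -0.16 for RBI2 against CX-5461 at 120 min, and NR4A2 at RBI2 120 min became -0.0428; with the replicate block added these were -0.11, -0.17 and -0.047. The cause was not tested. In TPM, 11 of the 36 log2 ratios of a member's group means to the control moved by more than the replicate SD, among them NR4A2 with RBI2 at 30 min (1.17) and EGR1 with RBI2 at 30 min (0.53).

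Deviations of same-numbered replicates from their group means had r of -0.179 to 0.18 over 21 pairs of groups. No source says what the numbers mean, and this check cannot exclude a shared culture or batch. The replicate block left the count of members called as it was in all 15 comparisons (4 of 4 in CX-5461 10 min), and of the list counts it moved 1, other immediate early genes at CX-5461 120 min, to 0.

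Members called moved as follows. Without a filter 1 was called in RBI2 10 min (1.04% of all genes), 1 in RBI2 against CX-5461 at 120 min (1.73%) and 1 in CX-5461 30 against 120 min (0.8%). In models of only the 4 libraries of a comparison 0 were called in CX-5461 10 min (0.0194% of all genes), and other immediate early genes gave 2 there, 0 in RBI2 10 min and 0 in CX-5461 120 min (0% of all genes in both), and EGR1 targets 0. Without a fold limit 1 member was called in RBI2 120 min (18% of all genes). At an unadjusted p, which 1.02% to 4.19% of all genes passed in the 15 comparisons, the counts were 2 in RBI2 10 min and 1 each in CX-5461 120 min, RBI2 against CX-5461 at 120 min, RBI2 10 against 120 min and CX-5461 30 against 120 min, and other immediate early genes gave 2 in CX-5461 120 min.

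The length offset gave 0 other immediate early genes in RBI2 10 min and 0 in CX-5461 120 min. Without a fold limit they numbered 3 in RBI2 10 min (0.201% of all genes), 7 in RBI2 120 min (18%), 22 in CX-5461 10 min (4.77%) and 3 in CX-5461 120 min (0.0778%); in RBI2 120 min the other lists gave 1 (EGR family and corepressors), 1 (NR4A partners), 2 (SRF), 2 (CREB), 3 (RAS-ERK) and 4 (EGR1 targets), and in CX-5461 10 min 1 (SRF) and 3 (EGR1 targets).

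With single libraries left out, members called were 0 to 1 in RBI2 10 min (0.0431% to 4.45% of all genes) and in RBI2 10 against 120 min (0.0433% to 1.33%). Other immediate early genes ran from 0 to 2 in RBI2 10, 30 and 120 min and in CX-5461 120 min, from 0 to 1 in CX-5461 30 min and from 11 to 15 in CX-5461 10 min, where the shares of all genes reached, without control replicate 1, 4.45%, 6.59%, 8.21%, 3.76%, 7.03% and 8.33%. EGR family and corepressors, SRF, CREB and EGR1 targets each ran from 0 to 1 where a count moved. Where the sign changed, the ranges were, against the control, EGR1 at RBI2 30 min -0.18 to 0.33, NR4A2 at CX-5461 30 min -1.24 to 0.42 and at RBI2 120 min -0.10 to 0.16, and NR4A3 at CX-5461 120 min -0.34 to 1.53, CX-5461 30 min -0.29 to 1.61, RBI2 120 min -0.87 to 1.02 and RBI2 30 min -0.31 to 1.58. For RBI2 against CX-5461 they were, at 120 min, EGR1 -0.0054 to 0.0746 and NR4A1 -0.28 to 0.23, and at 30 min NR4A1 -0.17 to 0.10 and NR4A3 -0.45 to 0.56. A group left with 1 library was assumed to vary like the others. Few reads limit NR4A3, EGR2 and EGR3 most.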
